A study of Mus musculus with 16 samples.

Results

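The genes of LIF and STAT3 signalling were examined in mouse embryonic stem cells (ESCs) depleted of RAM, the small protein that activates the mRNA cap methyltransferase RNMT. The 9 genes, Lif, Lifr, Il6st, Jak1, Jak2, Stat3, Socs3, Pim1 and Junb, were chosen by name from the 46983 genes of the count table, and each matched 1 gene identifier. The rule uses no measured value, although the choice was made with earlier results of these data known, and all 9 passed the filter on low counts, which asked for 1 CPM (a count scaled to the size of its library) or more in at least 10 of the 16 libraries and left 12805 genes for testing.

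All cultures were 46C ESCs of strain 129Ola, which carry GFP at the Sox1 locus, grown on gelatin in serum replacement medium to which recombinant human LIF had been added at 100 U/ml. Cells were transfected with siRNA to RAM or with a non-targeting control and harvested 48 hr later, after 10 min in cycloheximide. A part of each lysate was kept as input, and the remainder was run on a sucrose gradient from which fractions 17 to 22 were pooled as polysomes. RNA depleted of ribosomal RNA was sequenced from 4 replicates of each of 4 groups: input of control siRNA cells, input of RAM siRNA cells, polysomes of control siRNA cells and polysomes of RAM siRNA cells. The study describes the replicates as 4 independent experiments, and every culture kept LIF in the medium, so the data hold no comparison with cells deprived of LIF. The first comparisons ask how lowering RAM altered these transcripts in the whole lysate, on polysomes, and on polysomes relative to input. The last comparison sets polysomes against input in control cells alone.

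LIF is the cytokine that keeps mouse ESCs self-renewing in culture. It binds LIFR, which pairs with the shared receptor subunit gp130, encoded by Il6st, and the JAK kinases bound to both chains then phosphorylate STAT3, which moves to the nucleus and activates its targets. Socs3 is a classic STAT3 target whose product shuts the receptor off again, while Pim1 encodes a serine/threonine kinase and Junb an AP-1 transcription factor, both induced by cytokines of this family.

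Libraries held between 16647523 and 20147833 counts on genes. Ramac, which encodes RAM, had 10.8 ± 0.608 CPM (SD, n = 4) in control input and 3.02 ± 0.233 CPM in RAM siRNA input, a log2 fold change of -1.84 with a standard error (SE) of 0.11. The range of the summed level of 8 ESC markers was 2860 to 3040 CPM in control input and 2400 to 2580 CPM in RAM siRNA input, and none of the 8 was at 0 in all libraries of a group. Of these, 4 passed as lower in RAM siRNA cells (adjusted p under 0.05), against 5.94% of all genes, and 7 did so once the replicate number was a factor, against 19.0%. The summed level of 6 primitive endoderm markers ranged from 16.3 to 17.5 CPM in control input and from 20.5 to 28.6 CPM in RAM siRNA input. Of the 4 tested, 2 passed as higher, against 6.95% of all genes. With the replicate number as a factor 3 did so, against 20.3%. The other marker lists reached 37.3 CPM (trophectoderm), 16.4 CPM (mesoderm), 83.6 CPM (neural) and 14.2 CPM (fibroblast) in control input, against 31.1, 15.6, 91.9 and 18.1 CPM in RAM siRNA input. Neurog2, Col3a1 and Dcn were at 0 in all 4 control input libraries. The ESC, primitive endoderm, trophectoderm and fibroblast sums did not overlap between the siRNAs, and their part in the results below was not tested. The trophectoderm, fibroblast and mesoderm sums rest on few genes, since 2 of 5, 2 of 6 and 1 of 5 markers passed the filter on low counts. The mesoderm sum was mostly Eomes, with means of 14.9 CPM in control input and 12.0 CPM in RAM siRNA input. T, Mixl1, Mesp1 and Tbx6 had 0.324, 0.0251, 0.0664 and 0.188 CPM in control input and 0.651, 0.221, 0.111 and 0.305 CPM in RAM siRNA input. Tfap2c had a mean of 25.3 CPM in control input and 19.5 CPM in RAM siRNA input, whereas Cdx2 had 0.227 and 0.237 CPM. In bulk RNA, fewer cells of a type and less RNA per cell cannot be told apart.

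The level of the 9 genes is given first, as CPM per kilobase of exon (after scaling by edgeR's TMM method), which allows genes of different length to be compared. Exon length here joins all annotated exons of a gene, and it can exceed the length of a single transcript. In control input the order was Socs3 at 71.4 ± 7.21 (SD, n = 4), Junb at 55.8 ± 5.56, Lifr at 33.7 ± 3.44, Il6st at 32.2 ± 3.56, Pim1 at 23.2 ± 1.56, Stat3 at 11.2 ± 0.664, Jak1 at 8.79 ± 0.389, Jak2 at 1.72 ± 0.149 and Lif at 1.14 ± 0.134 CPM per kilobase. The ranges of the 4 libraries overlapped between Socs3 and Junb and between Lifr and Il6st, and no other neighbours in the order overlapped. The receptor chains were thus several times more abundant as transcripts than the kinases they bind, and the level per kilobase of Jak1 exceeded that of Jak2 in every control input library. Socs3 stood above 95.1% and Junb above 93.5% of the tested genes in level per kilobase, Lifr above 88.4% and Il6st above 87.7%, Stat3 above 65.8% and Jak1 above 59.5%, whereas Lif stood above 15.1% and Jak2 above 21.4%. The order changed in polysomes of control cells, where Junb came first at 72.8 ± 4.48 and Socs3 second at 55.1 ± 11.3 CPM per kilobase, although their ranges overlapped. Lif had the lowest level per kilobase in all 4 groups.

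**Figure D1:**
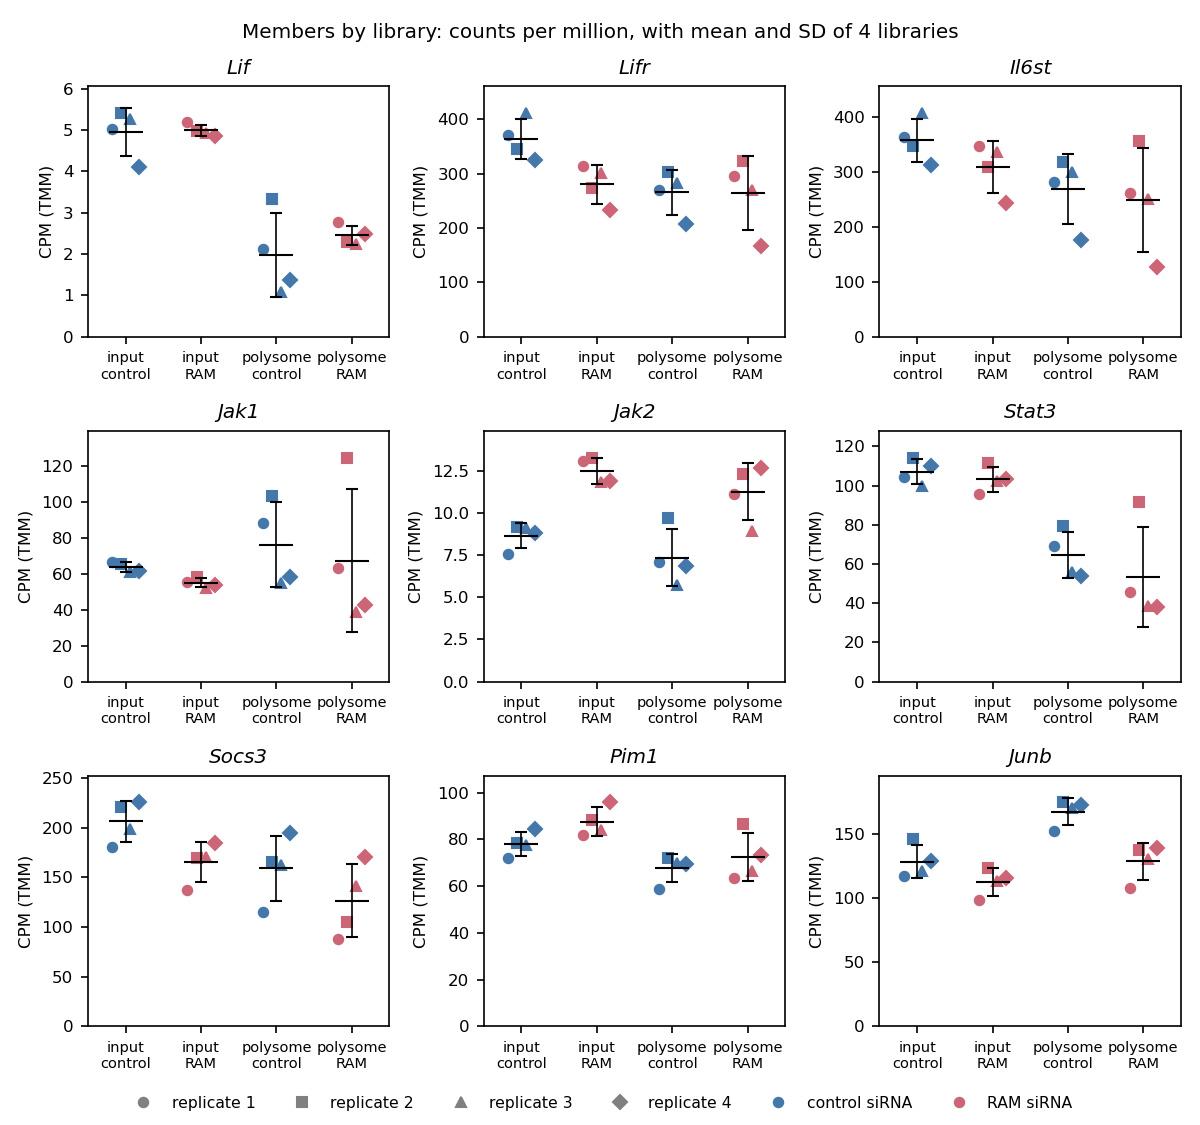
CPM of the 9 genes in each of the 16 libraries, on an axis that starts at 0 in every panel. Symbols give the replicate number, blue is control siRNA and red is RAM siRNA, and black bars give the mean and SD of 4 libraries. In input the 4 RAM siRNA libraries of Jak2 sit at 11.8 to 13.3 CPM, all above the controls, and those of Lifr and Jak1 all lie below the controls. In polysomes the RAM siRNA libraries of Jak1 and Stat3 spread widely, with replicate 2 the highest.

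The first comparison asked how RAM siRNA altered these transcripts in input. Without a factor for the replicate number, 1 of the 9 genes was lower (Lifr) and 1 was higher (Jak2) at an adjusted p under 0.05 from edgeR's quasi-likelihood test, against 5.94% lower and 6.95% higher of all genes tested. Libraries with the same replicate number deviated together, so the fit was also made with that number as a factor (a replicate block). Then 5 genes were lower (Lifr, Il6st, Jak1, Socs3 and Junb) and 2 higher (Jak2 and Pim1), against 19.0% and 20.3% of all genes tested. In the same-numbered pairs of libraries, these 5 genes were lower in RAM siRNA cells in all 4 pairs and these 2 were higher in all 4, which was the case for 24.6% and 25.9% of all genes. The median log2 fold change of the 9 genes was -0.19 in both fits, beside a median of 0.00070 over all genes without the block. The groups did not overlap for 2 lower genes (Lifr and Jak1; 8.62% of all genes) and 1 higher gene (Jak2; 9.39%).

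The ligand did not differ between the siRNAs beyond the spread of its libraries. Lif (ENSMUSG00000034394, chr11:4257557-4272514, plus strand, GRCm38) is transcribed by the ESCs themselves, apart from the LIF in the medium. It measured 5.02, 5.42, 5.26 and 4.11 CPM in control input replicates 1 to 4 and 5.19, 4.99, 4.94 and 4.87 CPM in RAM siRNA input, from 73 to 108 counts per library. The RAM siRNA libraries lay inside the range of the controls. The log2 fold change was 0.01 (SE 0.13, 95% interval -0.27 to 0.28, adjusted p = 0.975, and 0.953 with the block).

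Both receptor chains were lower in RAM siRNA input, Lifr in either fit and Il6st only with the block. Lifr (ENSMUSG00000054263, chr15:7090614-7197489, plus strand) had 370.4, 346, 412 and 326 CPM in control input and 314, 274, 302 and 234 CPM in RAM siRNA input. The groups were separate, with all RAM siRNA libraries under the lowest control, and in both groups replicate 4 was the lowest. This gave a log2 fold change of -0.38 (SE 0.11, adjusted p = 0.0362), or 0.771 of the control level (95% interval 0.658 to 0.904), and with the block the adjusted p was 1.72e-06. Without the block the call was lost when control replicate 1, 2 or 3 or RAM siRNA replicate 2 was left out, with adjusted p of 0.0977, 0.0662, 0.0757 and 0.0930.

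Il6st (ENSMUSG00000021756, chr13:112464070-112510086, plus strand) had 363, 348, 407 and 312 CPM in control input and 348, 308, 336 and 243 CPM in RAM siRNA input. The groups overlapped, although each RAM siRNA library lay below the control library of its number. The log2 fold change was -0.21 (SE 0.12, adjusted p = 0.268) without the block and -0.22 (SE 0.05, adjusted p = 0.00103) with it. Across the 16 libraries Lifr and Il6st moved closely together: the deviations of their log2 CPM from the group means had a Pearson r of 0.982 (n = 16 libraries), the highest of the 36 pairs of members. This r is a description, since both genes are measured in the same libraries and both have a large exon length, 10776 and 11099 bases.

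The kinases differed in direction, with Jak2 higher with and without the block and Jak1 lower with it. Jak2 (ENSMUSG00000024789, chr19:29251828-29313080, plus strand) had 7.56, 9.18, 9.09 and 8.78 CPM in control input and 13.1, 13.3, 11.8 and 11.9 CPM in RAM siRNA input, from 143 to 239 counts per library. All 4 RAM siRNA libraries lay above all 4 controls. RAM siRNA and control differed by a log2 fold change of 0.53 (SE 0.10, adjusted p = 0.00574, and 9.77e-05 with the block), 1.44 times the control level (95% interval 1.24 to 1.68).

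Jak1 (ENSMUSG00000028530, chr4:101152367-101265282, minus strand), the kinase with the higher level, had 66.6, 65.3, 61.0 and 61.3 CPM in control input and 55.7, 58.2, 52.2 and 54.0 CPM in RAM siRNA input. The groups did not overlap and were each tight. The log2 fold change was -0.21 (SE 0.07), or 0.864 of the control level, and the adjusted p was 0.0538 without the block and 0.00101 with it. The result lay at the threshold, since without the block Jak1 passed it under DESeq2 (adjusted p = 0.0346) and, in edgeR, under library-size scaling (0.0437), filterByExpr (0.0480) and in replicates 1 and 2 alone (0.0355).

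Stat3 (ENSMUSG00000004040, chr11:100885098-100939540, minus strand), the transcription factor of the pathway, had 104, 114, 99.8 and 109.8 CPM in control input and 95.9, 111, 102 and 103 CPM in RAM siRNA input. The ranges of both groups overlapped widely, and 3 of 4 pairs had the lower value in RAM siRNA cells. The difference was a log2 fold change of -0.06 (SE 0.07, 95% interval -0.21 to 0.10, adjusted p = 0.665, and 0.338 with the block). The interval of the ratio ran from 0.864 to 1.07 of the control level.

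Of the targets, Socs3 and Junb were lower and Pim1 higher with the block, and all 3 missed the threshold without it. Socs3 (ENSMUSG00000053113, chr11:117966079-117970047, minus strand) had 181, 221, 198 and 226 CPM in control input and 137, 169, 171 and 184 CPM in RAM siRNA input. The lowest control library, replicate 1, lay inside the RAM siRNA range, and each pair was lower. The log2 fold change was -0.32 (SE 0.10), or 0.799 of the control level (95% interval 0.687 to 0.929), with an adjusted p of 0.0518 without the block and 6.90e-06 with it. The result lay at the threshold: DESeq2 without the block gave an adjusted p of 0.0209, and without RAM siRNA replicate 4 edgeR gave 0.0179.

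Since STAT dimers are known to bind palindromes of the form TTCNNNGAA, the promoter windows of RefSeq (GRCm38.p6, from 250 bases before to 50 bases after an annotated start) were searched for these letters, which read the same on both strands. They were found in 1 of the 11 windows of the 9 genes (9.09%), a window of Socs3, and in 8.30% of the 32851 windows of all genes. The match is shown because Socs3 is the feedback gene of the pathway, on the minus strand at chr11:117969502-117969530, with the palindrome in capitals.
Socs3: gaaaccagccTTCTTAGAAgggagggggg
It lies 154 to 146 bases before the RefSeq start, inside an intron of a longer Socs3 transcript of GENCODE vM21. The match is a description of the sequence and not evidence of binding, and the windows of the other 8 genes do not hold these letters.

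Junb (ENSMUSG00000052837, chr8:84974484-84978718, minus strand) had 118, 146, 121 and 129 CPM in control input and 98.2, 124, 113 and 116 CPM in RAM siRNA input. The ranges overlapped, with replicate 2 the highest in both groups. The fit gave a log2 fold change of -0.19 (SE 0.09, adjusted p = 0.190, and 0.00185 with the block). Pim1 (ENSMUSG00000024014, chr17:29490753-29496112, plus strand) had 71.9, 78.3, 77.6 and 84.7 CPM in control input and 81.8, 88.3, 83.9 and 95.8 CPM in RAM siRNA input, higher in each of 4 pairs. Its log2 fold change was 0.16 (SE 0.07, adjusted p = 0.178, and 0.00570 with the block).

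Exons of 4 of these genes overlap a gene on the opposite strand: Jak1 shares 4 bases with Raver2, Stat3 72 with Stat5a, Junb 173 with Prdx2 and Pim1 488 with Gm26885. The libraries keep the strand, but the strand setting of the counting is not given in the sources used here.

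**Figure D2:**
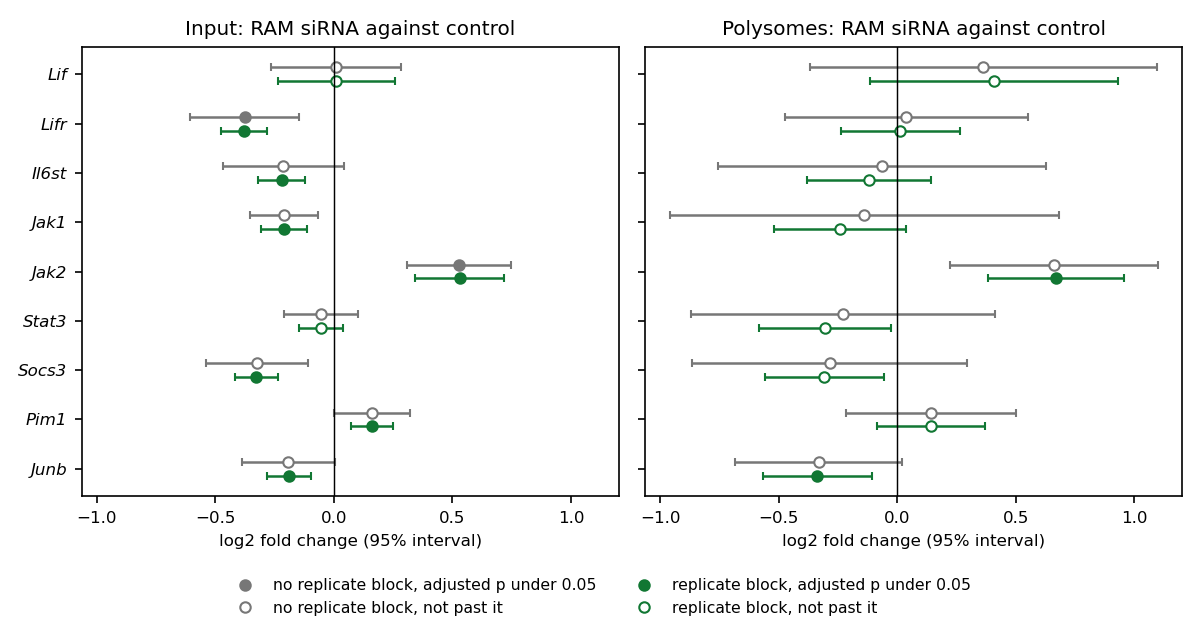
Log2 fold change of RAM siRNA against control for each of the 9 genes in input (left) and polysomes (right), with 95% intervals from edgeR's quasi-likelihood test without (grey) and with (green) the replicate block. Filled points have an adjusted p under 0.05. In input 2 grey and 7 green points are filled, and in polysomes 2 green points are filled.

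**Figure D3:**
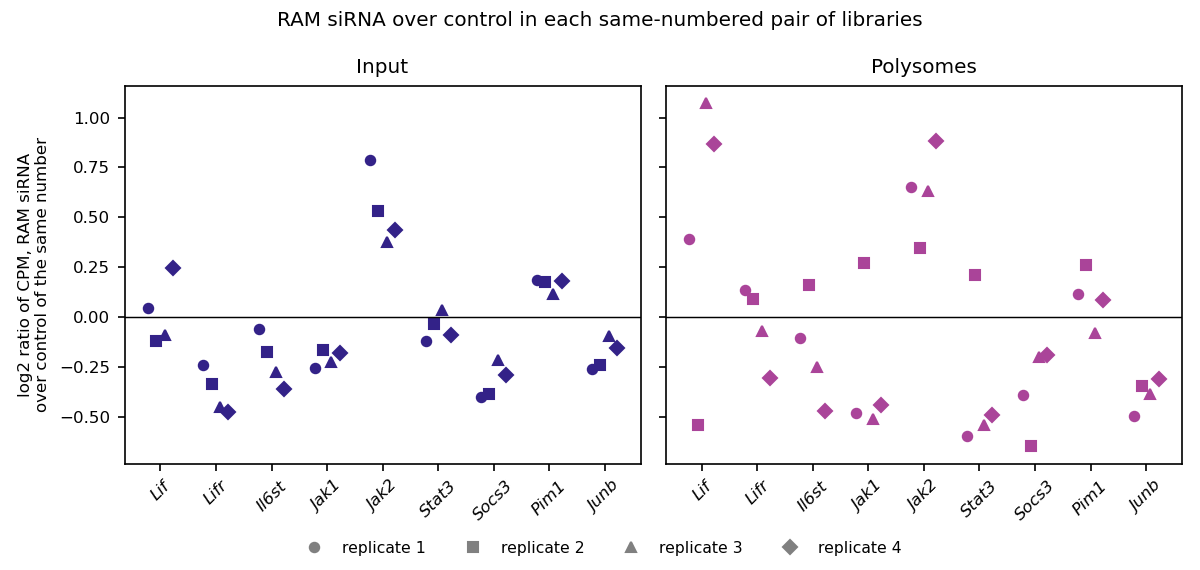
Log2 ratio of CPM of RAM siRNA over control in each same-numbered pair of libraries, in input (left) and polysomes (right). Symbols give the replicate number. In input all 4 pairs lie below 0 for 5 genes and above 0 for Jak2 and Pim1, and in polysomes replicate 2 lies on the other side of 0 from the other 3 pairs for Lif, Il6st, Jak1 and Stat3.

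The second comparison took the polysome libraries alone. Without the block, 0 of the 9 genes passed the threshold of edgeR's quasi-likelihood test, against 0.0234% lower and 0.00% higher of all genes, and DESeq2 also called 0. The unadjusted p was under 0.05 for 1 of the 9, Jak2, and for 1152 of the 12805 genes tested. With the block, Junb was lower and Jak2 higher, against 4.97% and 9.68% of all genes tested. Without the block the 9 genes had a median log2 fold change of -0.06 (all genes 0.06), and the block gave -0.12 (all genes 0.03). The groups did not overlap for 1 lower gene (Junb; 4.38% of all genes) and for 0 higher genes (2.18%), and all 4 pairs moved one way for 2 lower genes (Socs3 and Junb; 20.2%) and 1 higher gene (Jak2; 14.9%).

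Jak2 had 7.09, 9.69, 5.75 and 6.88 CPM in polysomes of control cells and 11.2, 12.3, 8.91 and 12.7 CPM in polysomes of RAM siRNA cells. Only control replicate 2 reached into the RAM siRNA range. The log2 fold change was 0.66 (SE 0.20, adjusted p = 0.284) without the block and 0.67 (SE 0.14, adjusted p = 0.00391) with it. Junb had 152, 175, 170.4 and 173 CPM in control and 108, 137, 131 and 139 CPM in RAM siRNA polysomes. No RAM siRNA library reached the lowest control. Its log2 fold change was -0.33 (SE 0.16, adjusted p = 0.589) without the block and -0.34 (SE 0.11, adjusted p = 0.0465) with it. The call of Junb under the block was lost without replicate 1, 3 or 4 (adjusted p = 0.300, 0.204 and 0.122), and without replicate 2 its adjusted p was 0.00166. The call of Jak2 under the block was lost without replicate 4 (log2 fold change 0.56, adjusted p = 0.0525).

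Lifr, which was lower in input, had 269.8, 303, 284 and 207 CPM in control polysomes and 297, 323, 271 and 168 CPM in RAM siRNA polysomes. Replicate 4 was the lowest in both groups and the other libraries of both groups intermingled. In the fit the log2 fold change was 0.04 (SE 0.23, adjusted p = 0.994) without the block and 0.01 (95% interval -0.24 to 0.26, adjusted p = 0.962) with it. Il6st ranged from 175 to 319 CPM in control polysomes and from 126 to 357 CPM in RAM siRNA polysomes, with a log2 fold change of -0.12 with the block (adjusted p = 0.574). In both groups replicate 2 was the highest and replicate 4 the lowest library of Il6st.

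In Jak1, Stat3, Il6st and Lif, pair 2 went against the other 3. Jak1 had 88.3, 103.5, 55.0 and 58.2 CPM in control polysomes and 63.2, 125, 38.6 and 42.8 CPM in RAM siRNA polysomes. Stat3 had 69.0, 79.3, 56.0 and 53.8 CPM in control polysomes and 45.6, 91.6, 38.4 and 38.3 CPM in RAM siRNA polysomes. Replicate 2 was the highest library of both genes in both groups, and in the other 3 pairs the RAM siRNA library held between 0.661 and 0.735 of the control level. With the block the log2 fold change was -0.24 (SE 0.13, adjusted p = 0.247) for Jak1 and -0.30 (SE 0.13, adjusted p = 0.136) for Stat3. When replicate 2 was left out under the block, an alternative chosen after seeing the data, they were -0.42 (adjusted p = 0.000236) and -0.49 (adjusted p = 5.75e-05). In that setting 7 of the 9 genes passed the threshold (Il6st, Jak1, Stat3, Socs3 and Junb lower, Lif and Jak2 higher), and so did 4558 of all genes, in place of 1875.

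Lif was scarce on polysomes, with 2.11, 3.34, 1.07 and 1.37 CPM in control cells and 2.77, 2.29, 2.25 and 2.49 CPM in RAM siRNA cells, from 19 to 63 counts per library. Its log2 fold change was 0.36 (SE 0.33, adjusted p = 0.899). Socs3 had 115, 165, 162 and 195 CPM in control polysomes and 88.1, 105, 141 and 171 CPM in RAM siRNA polysomes, lower in each pair, with a log2 fold change of -0.31 under the block (SE 0.12, adjusted p = 0.0957). Pim1 ranged from 58.9 to 72.2 CPM in control and from 63.7 to 86.4 CPM in RAM siRNA polysomes, with a log2 fold change of 0.14 (SE 0.11, adjusted p = 0.421) under the block.

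The polysome libraries of several of these genes differed by replicate number, and across all genes the libraries differed by exon length. The replicate number took 91.2% of the variance of Lifr in the 8 polysome libraries, 90.5% of that of Il6st and 85.0% of that of Jak1, and the siRNA took 0.382%, 3.27% and 6.73%. For Junb and Jak2 the siRNA took more, 72.5% and 63.5%. The replicate number has more levels than the siRNA and takes a larger share by chance, so the shares are not directly comparable. Over the 5359 tested genes with at least 5000 bases of exon, the median deviation from the mean of the polysome libraries was 0.12, 0.16, -0.08 and -0.14 on the log2 scale in control replicates 1 to 4 and 0.02, 0.30, -0.17 and -0.24 in RAM siRNA replicates 1 to 4. Over the 1967 genes under 2000 bases it ran the other way, from -0.59 in RAM siRNA replicate 2 to 0.46 in RAM siRNA replicate 4. Jak1 (7227 bases) and Stat3 (9527 bases) were also high in RAM siRNA replicate 2, at 0.91 and 0.70, while Socs3 (2891 bases) was at -0.39 there and at 0.30 in RAM siRNA replicate 4. Not all members followed their length class: Jak2 (5030 bases) was at 0.49 in RAM siRNA replicate 4, and Pim1 (3362 bases) at 0.31 in RAM siRNA replicate 2, where the class of 2000 to 5000 bases was at -0.14. The part of this difference between libraries in the polysome results was not tested.

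**Figure D4:**
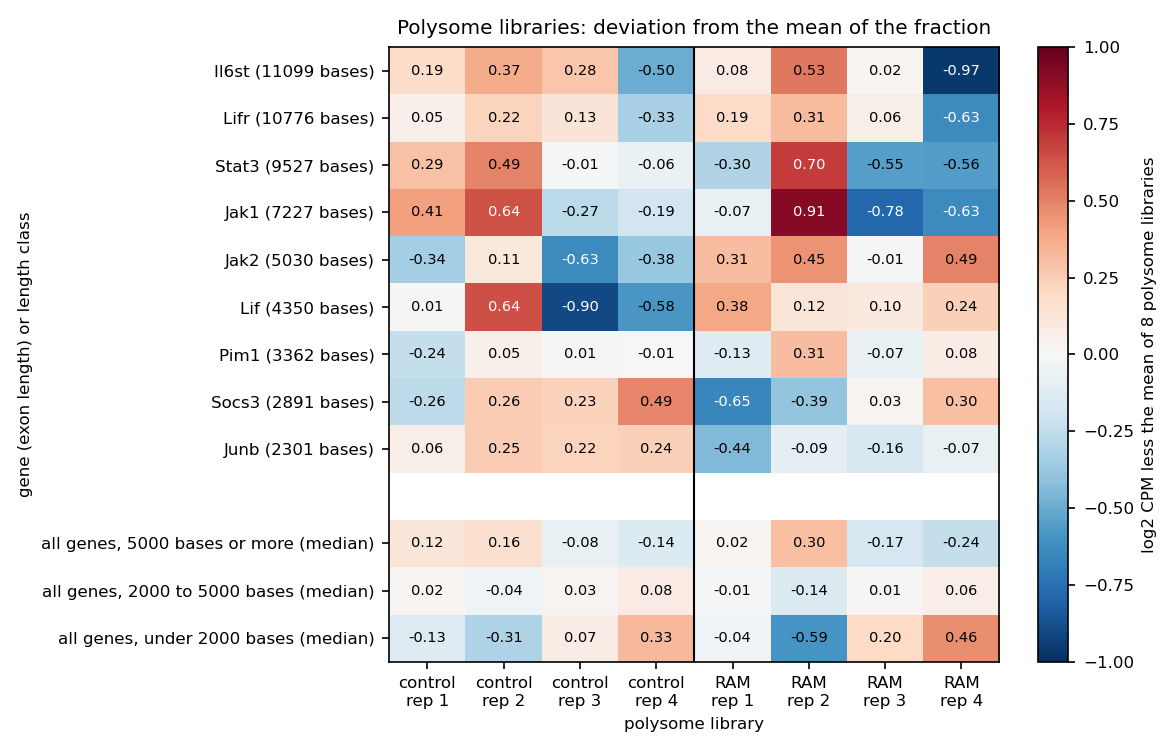
Deviation of each polysome library from the mean of the 8 polysome libraries, in log2 CPM, for the 9 genes in order of exon length and for the median of all tested genes in 3 length classes. Red is above and blue below the mean. RAM siRNA replicate 2 is high for the long genes (0.91 for Jak1) and low for genes under 2000 bases (-0.59), and replicate 4 of both groups is low for Il6st and Lifr.

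The third comparison tested the change of polysome loading, as an interaction over all 16 libraries. It asked whether the difference between RAM siRNA and control was another on polysomes than in input. Levels were relative to all genes after scaling, so a change of loading shared by all transcripts would not show here. The study reported a lower ratio of polysomes to monosomes after RAM siRNA. By edgeR's quasi-likelihood test 0 of the 9 genes passed the threshold, against 0.00% of all genes in either direction, and DESeq2 called 0. The unadjusted p of edgeR's test was under 0.05 for 0 of the 9 genes and for 0.781% of all genes. The estimates ran from -0.22 for Stat3 to 0.36 for Lifr on the log2 scale, with a median of 0.03 beside 0.0013 over all genes. The interval of Lifr reached from -0.19 to 0.92 and that of Jak1 from -0.84 to 0.89, and changes of loading inside these intervals could not be told from none. With the replicate block set within each fraction, 0.0156% of all genes were lower and 0.00% higher, and Lifr was the 1 member with an unadjusted p under 0.05, against 4.97% of all genes. Its log2 change of loading was then 0.34 (SE 0.12), with an adjusted p of 0.954 by edgeR's quasi-likelihood test. In the 4 RAM siRNA cultures the log2 ratio of polysome to input CPM of Lifr was -0.08, 0.24, -0.16 and -0.48, and in the controls it was -0.46, -0.19, -0.54 and -0.65. Each RAM siRNA culture lay above the control culture of its number, and the groups overlapped. The loading of Jak2, which was higher in both fractions, had a log2 change of 0.08 (95% interval -0.39 to 0.55, adjusted p = 1.00).

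The last comparison set polysomes against input in control cells, with each gene relative to all genes after scaling. Of the 9 genes, 5 were lower on polysomes (Lif, Lifr, Il6st, Stat3 and Socs3) and 1 was higher (Junb), against 34.3% and 33.1% of all genes. With the block Pim1 was also lower, giving 6 lower and 1 higher, against 37.2% and 35.1%. The median was -0.40 (log2), beside -0.00079 over all genes. The groups did not overlap for 3 lower genes (Lif, Lifr and Stat3; 30.4% of all genes) and 1 higher (Junb; 30.7%). Input RNA was purified with Trizol and polysome RNA by phenol extraction and lithium chloride precipitation, so the fraction and the purification cannot be told apart in this comparison. In all 4 cultures 6 genes had less on polysomes than in input and 1 had more, as did 36.8% and 38.3% of all genes.

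The ligand was the furthest below input, with log2 ratios of -1.25, -0.70, -2.29 and -1.59 in the 4 control cultures. Its log2 fold change was -1.35 (SE 0.29, adjusted p = 0.00149), or 0.391 of the input level (95% interval 0.252 to 0.607). Stat3 followed with ratios of -0.60, -0.53, -0.84 and -1.03 and a log2 fold change of -0.77 (SE 0.14, adjusted p = 0.000418), or 0.588 of the input level. Both passed the threshold in each of 20 alternatives.

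The receptor chains were lower on polysomes by similar amounts, Lifr by a log2 fold change of -0.49 (SE 0.14, adjusted p = 0.00974) and Il6st by -0.45 (SE 0.18, adjusted p = 0.0421). Il6st and Socs3 (-0.40, SE 0.17, adjusted p = 0.0475) lay near the threshold. The call of Il6st was lost without input replicate 1, 2 or 3 or polysome replicate 1, 3 or 4, with adjusted p from 0.0503 to 0.112, and without polysome replicate 4 its log2 fold change was -0.29. That of Socs3 was lost without any input replicate or polysome replicate 1 or 3, with adjusted p from 0.0511 to 0.117, and without polysome replicate 1 its log2 fold change was -0.27. The block gave adjusted p of 0.00978 for Il6st and 0.00945 for Socs3. Lifr kept its call when any library was left out, but lost it in edgeR without a filter (adjusted p = 0.0709) and in replicates 3 and 4 alone (0.0645). Il6st and Socs3 also lost theirs in edgeR under RLE scaling (adjusted p = 0.0571 and 0.0503), filterByExpr (0.105 and 0.101) and without a filter (0.141 and 0.184).

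Junb was the member past the threshold with a higher level on polysomes than in input, relative to all genes. Its log2 ratios were 0.37, 0.26, 0.50 and 0.42 in the 4 control cultures, and its log2 fold change was 0.35 (SE 0.12, adjusted p = 0.0197), 1.28 times the input level. The call was lost without input replicate 1 (adjusted p = 0.0721) or 3 (0.0567), and under scaling by library size alone (log2 fold change 0.26, adjusted p = 0.0717). The kinases did not pass the threshold, Jak1 at 0.23 (SE 0.19, adjusted p = 0.297) with 2 cultures above and 2 below input, and Jak2 at -0.27 (SE 0.17, adjusted p = 0.182). Without polysome replicate 2 Jak2 was lower on polysomes (-0.41, adjusted p = 0.0306). Pim1 had -0.24 (SE 0.11, adjusted p = 0.0824, and 0.0415 with the block).

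**Figure D5:**
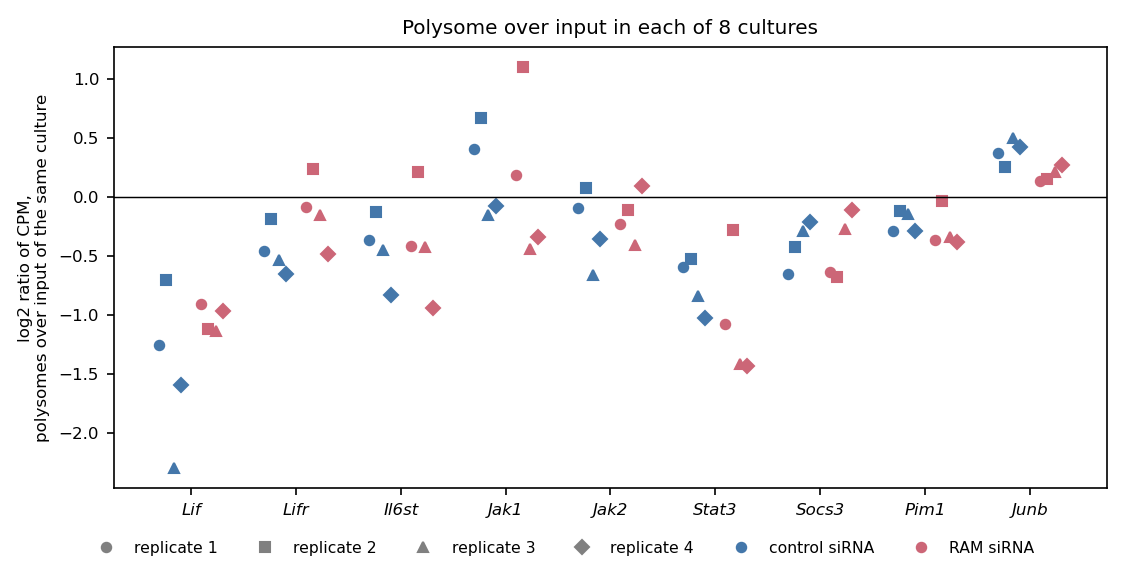
Log2 ratio of CPM on polysomes over input in each of the 8 cultures, with control siRNA in blue and RAM siRNA in red and the replicate number as the symbol. The line at 0 marks equal CPM in both fractions. Lif, Stat3, Socs3 and Pim1 lie below it in all cultures and Junb above it in all. Jak1 spreads from -0.44 to 1.10 in RAM siRNA cultures.

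The remaining genes of the pathway were read from lists chosen by function, and their counts in input stand against 5.94% lower and 6.95% higher of all genes without the block and 19.0% and 20.3% with it. Of 11 other ligands and receptors of the IL-6 family, 6 were tested, and in input 1 was higher without the block and 2 with it. Cntfr, the receptor subunit for CNTF, which also signals through LIFR and gp130, rose by a log2 fold change of 0.47 (SE 0.10, adjusted p = 0.0117), and Il11ra1 rose only with the block (0.30, adjusted p = 0.0185). Their median was 0.21, beside 0.00070 over all genes.

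Of 8 other JAK and STAT genes, 2 were lower in input without the block, and 7 of 8 estimates were below 0 (median -0.25). Jak3, a kinase of immune cytokine receptors, fell by 0.62 on the log2 scale (SE 0.11, adjusted p = 0.00434) and Stat6 by 0.39 (SE 0.09, adjusted p = 0.0119), and with the block further genes of the list were lower, among them Stat5a (-0.36, adjusted p = 0.00367). In polysomes with the block Jak3 was again lower (-0.80, adjusted p = 0.00028).

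Among 14 negative regulators (the SOCS family other than Socs3, Cish, the PIAS proteins and tyrosine phosphatases), 2 were lower in either fit, Socs2 at -0.26 (SE 0.06) and Socs5 at -0.40 (SE 0.10), both with an adjusted p of 0.0191. Among 7 tested adaptors that link the receptor to ERK and PI3K, all estimates were below 0. Of these 2 were lower without the block, Shc1 at -0.55 (SE 0.08, adjusted p = 0.000958) and Pik3ca at -0.31 (SE 0.06, adjusted p = 0.00819). With the block Ptpn11, which encodes the phosphatase SHP2, Sos1 and Pik3r1 were lower as well, giving 5 of 7.

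Of 11 further LIF and STAT3 targets in ESCs, 1 was lower and 1 higher without the block and 5 were lower and 1 higher with it. Pramel7, a gene of the preimplantation embryo, rose to 2.01 times its control level (95% interval 1.50 to 2.68, adjusted p = 0.00575), and Bcl3 was lower at -0.34 (SE 0.10, adjusted p = 0.0471). With the block Pim3 (-0.27), Tfcp2l1 (-0.25), Klf4 (-0.14) and Cebpb (-0.28) were also lower. The targets past the threshold thus held both directions, as did Socs3 and Pim1 with the block. Of 7 AP-1 and PIM relatives 1 was lower with the block, Jund (-0.25, adjusted p = 0.000722). Of 11 immediate early genes, 1 was lower (Dusp1, -0.45) and 1 higher (Egr2, 0.56) without the block and 3 and 3 with it, where Atf3 (-0.36) and Ier2 (-0.14) were also lower and Egr1 (0.32, adjusted p = 2.34e-05) and Nr4a1 (0.21) also higher. Dusp1, a MAP kinase phosphatase, was also lower in polysomes with the block, at -0.85 (adjusted p = 0.00018).

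In polysomes (all genes with the block 4.97% lower and 9.68% higher), 0 genes of these 7 lists passed the threshold of edgeR's quasi-likelihood test without the block. With it 2 of 6 IL-6 family genes were higher (Cntfr, 0.57, and Il11ra1, 0.72), and 1 gene each was lower among the other JAK and STAT genes (Jak3), the negative regulators (Socs2, -0.39), the adaptors (Shc1, -0.73), the targets (Bcl3, -0.55) and the immediate early genes (Dusp1). Among the targets Pramel7 was higher (0.71, adjusted p = 0.00551), and among the 7 AP-1 and PIM relatives 0 passed. In polysomes of control cells against their input, 7 of the 14 negative regulators were lower and 4 higher without the block, with a median of -0.39, against 34.3% and 33.1% of all genes. The other JAK and STAT genes had 4 lower and 1 higher of 8, and the adaptors 4 lower and 2 higher of 7. The immediate early genes had 1 lower and 4 higher of 11, and the targets 2 lower and 1 higher of 11.

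Across all 16 libraries, the gene whose log2 CPM ran most nearly parallel to each member was Zfp790 for Lif (Pearson r = 0.949), Ppm1l for Lifr (0.961), Nhlrc3 for Il6st (0.984), Prc1 for Jak1 (0.989), Thbs2 for Jak2 (0.875), Kdm4a for Stat3 (0.984), Esrra for Socs3 (0.930), Usp22 for Pim1 (0.935) and Fah for Junb (0.911). No 2 members shared a nearest gene. These correlations are descriptive, since the 16 libraries share the fraction, the siRNA and the replicate number. Among the members themselves the deviations from the group means correlated most for Lifr with Il6st (0.982), Jak1 with Stat3 (0.956) and Socs3 with Junb (0.733), and the most negative value was that of Lifr with Socs3 (-0.716). Socs3 and Junb have the shortest exon sums of the 9 genes, 2891 and 2301 bases.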

How the data were processed

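The authors depleted ribosomal RNA, made stranded libraries, mapped the reads to GRCm38 (mm10) with STAR 2.5.1b, assigned them to genes with htseq-count and deposited raw counts, not normalized. No column belonged to another sample (0). The annotation release and strand setting are not given in the sources used here. Gene identifiers were matched to mouse symbols; positions and exon lengths are from GENCODE vM21. Genes reaching 1 CPM in 10 or more of the 16 libraries were tested with edgeR 4.0.16 (quasi-likelihood test, TMM scaling, R 4.3.3), p-values were adjusted by Benjamini-Hochberg over all 12805 genes, and the threshold was 0.05. Comparisons within a fraction or within control cells used 8 libraries and the change of loading used all 16. The members and lists were chosen with earlier results of these data known. All 9 members are named, and listed genes are named where past the threshold, at most 6 a list, except that some are not reported here.

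The replicate numbers pair the samples: the labels share them across groups, input and polysomes of a number come from 1 lysate, and deviations from group means of same-numbered libraries correlated over genes in every pair (0.295 to 0.601 in input, 0.520 to 0.879 in polysomes, 0.231 to 0.463 between fractions in control cells). The study's methods name no factor for the replicate, so fits without and with it are given. Any pair of libraries of 1 group differed by more than counting noise (chi-square per gene of at least 5.09). Alternatives were RLE and library-size scaling, no filter or filterByExpr, DESeq2 1.42.0, replicates 1 and 2 or 3 and 4 alone, and each library left out. The steps were tested on simulated counts that held no replicate effect, so that test does not bear on the choice between the fits without and with the block.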

Additional observations from a re-analysis of the deposited data

Results flagged for a closer look

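Of 36 groups of 4 libraries (9 genes in 4 groups), 1 held a library far from the others: Stat3 in polysomes of RAM siRNA cells, where replicate 2 had 91.6 CPM and the other 3 lay between 38.3 and 45.6 CPM. The gap to the nearest library was 0.861 of the whole range of the group, and chance flags about 1 in 20 groups. The same library was the highest of its group for Jak1, Il6st, Lifr and Pim1. Without it and its control, the log2 fold change of Stat3 in polysomes under the replicate block was -0.49 (adjusted p = 5.75e-05 by edgeR's quasi-likelihood test), in place of -0.30 (adjusted p = 0.136).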

How the results depend on the processing

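Counts of members past the threshold of edgeR's quasi-likelihood test moved with the processing. In input the count was 2, and it was 4 with library-size scaling, with filterByExpr, with DESeq2 and in replicates 1 and 2 alone, 0 in replicates 3 and 4 alone, 7 with the replicate block and 7 with DESeq2 and the replicate block, and from 1 to 3 with a library left out (7 under the block with any number left out). In polysomes it was 0, and 2 with the replicate block in edgeR or DESeq2, and 0 with any library left out, but from 0 to 7 under the block with a number left out, the highest without replicate 2. For loading it was 0 in all 26 alternatives. For polysomes against input in control cells it was 6, and 3 without a filter, 2 in replicates 3 and 4 alone, 7 with the replicate block, and from 3 to 7 with a library left out (5 to 6 under the block). Lifr, Il6st and Socs3 were past the threshold in input in 16, 6 and 12 of 21 alternatives, and Jak2 in 20, all but replicates 3 and 4 alone.

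Over all genes the count was 1651 in input (913 to 2506 with a library left out, 0 to 5028 over all alternatives), 3 in polysomes (0 to 48, and 0 to 4558), 0 for loading (0 to 2) and 8628 in control cells (7877 to 8905, and 7374 to 12094). Without a filter the median of all genes in the last comparison was 0.14 on the log2 scale, in place of -0.00079; no other scaling moved a median by over 0.1.

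Of 792 values of single genes under alternatives, 638 kept direction and side, 58 passed the threshold newly, 35 missed it and 61 changed sign; the cause was not tested. Lif in input was -0.013 with library-size scaling, -0.018 without a filter, -0.0079 with filterByExpr, -0.039 in replicates 1 and 2 alone, -0.0002 and -0.056 under the block without replicate 1 and 4, and -0.071 to 0.054 with a library left out. In polysomes Lifr was -0.031 with library-size scaling, -0.013 without a filter, -0.10 in replicates 3 and 4 alone, -0.0032 with DESeq2 and the block, -0.052 and -0.019 under the block without replicate 1 and 2, and -0.097 to 0.19 with a library left out. In replicates 1 and 2 alone the polysome value was -0.080 for Lif, 0.074 for Il6st and 0.0027 for Jak1, and with a library left out it was -0.27 to 0.14 for Il6st and -0.60 to 0.041 for Jak1. The loading of Socs3 was 0.026 with RLE and 0.026 with DESeq2, 0.013 with library-size scaling, 0.061 without a filter, 0.038 with filterByExpr, 0.063 in replicates 3 and 4 alone and -0.19 to 0.13 with a library left out. That of Jak1 was -0.036 with the block, -0.077 with it within each fraction, -0.089 by culture, -0.27 in replicates 3 and 4 alone and -0.46 to 0.22 with a library left out. That of Pim1 was 0.0069 without a filter, 0.070 in replicates 1 and 2 alone and -0.16 to 0.039 with a library left out. In replicates 1 and 2 alone loading was -0.020 for Lif, -0.12 for Jak2 and 0.021 for Stat3, in replicates 3 and 4 alone it was -0.017 for Il6st, and with a library left out it was -0.019 to 0.24 for Jak2 and -0.13 to 0.32 for Il6st. Jak1 on polysomes against input in control cells was -0.11 in replicates 3 and 4 alone.

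The replicate block with a number left out and DESeq2 with the block were chosen after seeing the data. Where an arm was left with 2 libraries, the spread was shared over the fit. The planned exact permutation test for members under the filter gave no value, since all 9 passed. Lif had the fewest counts, 19 to 108 per library, and the widest intervals in control cells.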
